A study of Mus musculus with 6 samples.

Results

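The transcripts examined here are those of 9 listed genes known from red blood cells. They include the embryonic globins Hbb-bh1, Hbb-y and Hba-x and the later globins Hba-a1, Hbb-b1 and Hbb-b2. The others are the haem synthesis enzyme gene Alas2, the membrane anion exchanger gene Slc4a1 and the transcription factor gene Klf1. Members were the array probes whose RefSeq accession maps to a listed gene, which gave 9 probes for 8 genes among the 55681 probes of the array. Hbb-y had 2 probes, A_55_P1967478 and A_55_P1967481, and every other gene had 1. No probe was matched to Hbb-b1 under that name. The related adult β-globin genes Hbb-bs and Hbb-bt are described beside the members, and the Hbb-bt probe carries an accession that older annotations may have given to Hbb-b1.

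RNA came from spinal cords of mouse embryos at E12.5 that carried the Hb9::GFP reporter, in which control sequence of the motor neuron gene Hb9 drives green fluorescent protein. Dissociated cells were sorted into GFP-on motor neurons and GFP-off non-motor neurons, and the GFP-off fraction can hold any other cell of the dissected tissue. Embryos were labelled as mir-17~92 -/- (homozygous loss of a microRNA cluster) or as wild type, with Hb9::GFP in both. Each genotype label had 2 arrays of GFP-on cells and 1 of GFP-off cells, which makes 6. In the descriptions, the first GFP-on array and the GFP-off array of each genotype label share a tag whose meaning is not given. The labels do not say whether arrays of a group came from separate embryos or from pools, so p-values measure only the spread between these arrays.

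The first red cells of a mouse embryo are made in the yolk sac and circulate with their nuclei. They carry embryonic haemoglobins built from the ζ-like chain of Hba-x and the β-like chains of Hbb-y and Hbb-bh1, together with adult-type α chains. Red cells made later in the fetal liver use α chains of Hba-a1 and Hba-a2 with adult β chains. In a dissected and dissociated spinal cord, transcripts of these genes are read here as markers of blood in and around the tissue. The source of their signal was not tested.

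The arrays differed in overall brightness. The 75th percentile of the processed signal lay between 48.5 and 64.5 on 3 GFP-on arrays, and was 506 on the second knockout-labelled GFP-on array. The GFP-off arrays reached 550 (knockout label) and 340 (wild-type label). Between 41.0% and 62.3% of spots were well above background, and no spot was saturated. The second wild-type-labelled GFP-on array stood apart: over the 19075 probes above background on all arrays, its correlation with the others was 0.736 to 0.806, apart from 0.928 with the first wild-type-labelled GFP-on array. Mir17hg, the host transcript of the cluster, went against the genotype labels. Under the knockout label its log2 levels were 4.55 and 4.78 in GFP-on cells and 4.62 in GFP-off cells. Under the wild-type label they were -2.38 (not well above background), 2.73 and -1.23. Where this probe lies relative to the deleted part is not known here, so arrays are named below by their label alone. Of the motor neuron marker probes, 4 of 9 were higher in GFP-on cells in the cell type fit (0.649% of all probes) and none was lower (0.204%). Their summed level was 8.14 to 39.9 on the GFP-on arrays and 3.42 to 5.19 on the others.

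Promoters are shown because erythroid genes are known for GATA and CACCC elements, bound by GATA1 and by the Klf1 product. RefSeq windows of assembly GRCm38.p6 were at hand for 5 of the 9 members. Each line gives the 150 bases before the transcript start, 5′ to 3′ on the gene's strand, with motif matches on either strand in capitals. The motifs searched were the GATA motif with the letters AGATAA, or with TGATAA in their place, the Klf1-type box of the letters CACCC, the promoter box spelled CCAAT, and the TATA-like motif spelled ATAAA. The windows lie at chr7:103853208-103853357 (minus strand, Hbb-y), chr11:32283522-32283671 (plus, Hba-a1), chr11:32276450-32276599 (plus, Hba-x), chrX:150547267-150547416 (plus, Alas2), chr8:84901832-84901981 (plus, Klf1) and, for the related adult gene Hbb-bs, chr7:103827929-103828078 (minus).
Hbb-y: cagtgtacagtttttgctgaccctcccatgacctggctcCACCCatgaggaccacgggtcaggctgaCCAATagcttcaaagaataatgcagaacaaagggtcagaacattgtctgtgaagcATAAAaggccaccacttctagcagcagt
Hbb-bs: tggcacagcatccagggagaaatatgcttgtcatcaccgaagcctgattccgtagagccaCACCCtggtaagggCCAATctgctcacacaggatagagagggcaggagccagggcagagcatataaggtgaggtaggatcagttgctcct
Hba-x: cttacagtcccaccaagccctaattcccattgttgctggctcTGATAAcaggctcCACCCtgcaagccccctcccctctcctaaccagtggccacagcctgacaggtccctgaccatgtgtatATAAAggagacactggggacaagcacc
Hba-a1: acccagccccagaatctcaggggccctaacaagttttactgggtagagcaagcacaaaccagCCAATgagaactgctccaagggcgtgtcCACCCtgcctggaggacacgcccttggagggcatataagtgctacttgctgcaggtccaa
Alas2: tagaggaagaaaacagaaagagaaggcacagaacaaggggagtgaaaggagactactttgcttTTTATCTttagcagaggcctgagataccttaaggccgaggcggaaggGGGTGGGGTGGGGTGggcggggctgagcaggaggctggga
Klf1: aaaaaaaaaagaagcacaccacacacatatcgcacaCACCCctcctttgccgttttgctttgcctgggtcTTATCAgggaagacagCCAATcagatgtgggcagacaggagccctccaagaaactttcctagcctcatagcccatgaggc

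A CACCC match was present in all 6 windows, against 37.4% of the 32851 promoter windows in the same table. GATA matches were found in Hba-x, Alas2 and Klf1, and 9.65% of all windows hold one. CCAAT was present in Hbb-y, Hba-a1, Klf1 and Hbb-bs (24.5% of all windows), and ATAAA in Hbb-y, Hba-x and Alas2 (24.1%). In Alas2 the CACCC matches lie in a run on the opposite strand, and the GATA and ATAAA matches overlap each other. The window of Hba-a1 shares an unbroken run of 147 bases with that of its neighbour Hba-a2. These matches describe letters in a window and say nothing of binding.

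Of the 7 member genes tested, 5 were lower in sorted motor neurons than in the GFP-off fraction. The embryonic globins Hbb-bh1 and Hba-x, the adult β-globin Hbb-b2, Alas2 and Slc4a1 were between 6.01-fold and 22.6-fold lower on average. Hbb-y and Hba-a1 had fitted differences in the same direction that did not pass the test. The comparison asks how the 2 sorted fractions differ in their red cell transcripts. Levels are log2 processed signals relative to the array's 75th percentile, so 0 is that percentile, and the difference is GFP-on minus GFP-off in an additive model of cell type and genotype label (limma, adjusted over 33264 probes above background on at least 2 arrays). Of the 8 member probes tested, 5 were lower at an adjusted p under 0.05 and none was higher. With the Hbb-bt probe counted as Hbb-b1 they would be 6 of 9. Over all probes tested, 0.204% were lower and 0.649% were higher. On all 8 member probes every GFP-on array lay below both GFP-off arrays, as was so for 14.8% of all probes. The median difference was -2.99 over the member probes and -0.09 over all probes.

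**Figure D1:**
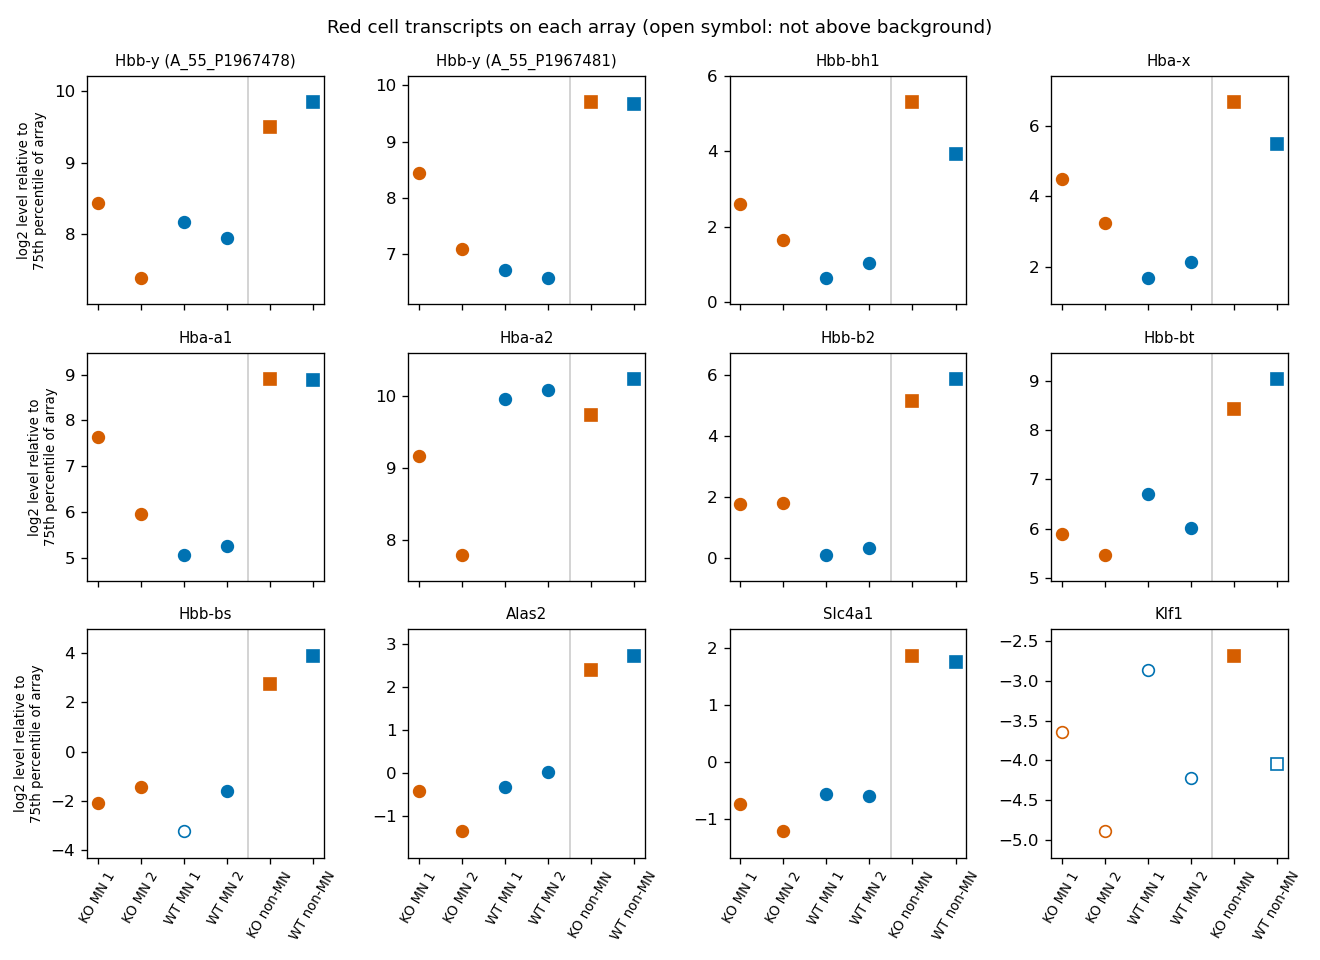
Log2 level relative to the array's 75th percentile for each member probe and for Hba-a2, Hbb-bt and Hbb-bs on each of the 6 arrays (circles: GFP-on motor neurons, MN; squares: GFP-off cells; orange: knockout label, KO; blue: wild-type label, WT). Squares lie above all circles in every panel apart from Hba-a2 and Klf1, and Klf1 was well above background on 1 array alone.

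Among the embryonic β-like globins, Hbb-bh1 had levels of 2.61 and 1.65 on the knockout-labelled GFP-on arrays and 0.64 and 1.03 on those of the wild-type label. The knockout-labelled and wild-type-labelled GFP-off arrays stood at 5.30 and 3.94, above all 4 GFP-on arrays. The fitted difference was -3.14 ± 0.48 (SE, adjusted p = 0.0345, 95% interval -4.22 to -2.07), an 8.83-fold lower level in motor neurons. Hbb-y encodes the most abundant β-like chain of yolk sac red cells. Its probe A_55_P1967481 read 8.45 and 7.10, then 6.73 and 6.58, on the GFP-on arrays in the same order, and 9.70 and 9.68 on the others. Its probe A_55_P1967478 read 8.43, 7.39, 8.17 and 7.94 on the GFP-on arrays and 9.50 and 9.84 on the others. Neither probe overlapped between the cell types. Their differences of -2.47 ± 0.54 (adjusted p = 0.0669) and -1.69 ± 0.49 (adjusted p = 0.121) did not pass the test, with 95% intervals of -3.68 to -1.27 and -2.77 to -0.60.

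The α-like globins were led by Hba-x, the embryonic ζ-like chain. It read 4.48 and 3.25 on the knockout-labelled GFP-on arrays, 1.69 and 2.14 on those of the wild-type label, and 6.66 and 5.49 on the GFP-off arrays. The GFP-on values spread over a range of 2.79 on the log2 scale and did not reach the lower GFP-off value. Hba-x was 9.09-fold lower in motor neurons (-3.18 ± 0.52, adjusted p = 0.0368). Hba-a1, an adult-type α chain used throughout development, read 7.64 and 5.97, 5.08 and 5.28 on the GFP-on arrays, against 8.90 and 8.87. Its difference of -2.90 ± 0.60 missed the threshold (adjusted p = 0.0583, 95% interval -4.24 to -1.55) although the cell types did not overlap.

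Hba-a2, which lies beside Hba-a1 and encodes a nearly identical chain, gave another pattern. Its probe read 9.16 and 7.81 on the knockout-labelled GFP-on arrays, 9.96 and 10.08 on those of the wild-type label, and 9.73 and 10.23 on the GFP-off arrays. The cell types overlapped, and the difference was -0.73 ± 0.54 (adjusted p = 0.472, 95% interval -1.93 to 0.47). The 95% interval still allows a 3.80-fold lower level in motor neurons. The difference was -1.43 with normexp background correction and -1.76 with quantile normalization, and passed with neither (adjusted p = 0.109 and 0.219). Probe sequences were not used here, so how far each of these 2 probes also reads the other copy is not known, and the Hba-a1 and Hba-a2 values are uncertain as measures of a single gene.

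Hbb-b2, an adult β-globin, had the largest difference of the members. Its levels were 1.77 and 1.81 on the knockout-labelled GFP-on arrays and 0.12 and 0.32 on those of the wild-type label, and 5.14 and 5.86 on the GFP-off arrays. The gap between the highest GFP-on array and the lower GFP-off array was 3.33 on the log2 scale. Hbb-b2 was 22.6-fold lower in motor neurons (-4.50 ± 0.57, adjusted p = 0.0227, 95% interval -5.77 to -3.22). Mouse strains carry either Hbb-b1 and Hbb-b2 or the closely similar pair Hbb-bs and Hbb-bt as their adult β-globins, and the strain is not given in the labels. The probe of Hbb-bs read -2.10, -1.42, -3.24 (not well above background) and -1.59 on the GFP-on arrays, and 2.75 and 3.91 on the others, a difference of -5.41 ± 0.63 (adjusted p = 0.0145). That of Hbb-bt read 5.89, 5.48, 6.70 and 6.01, against 8.42 and 9.03 (-2.71 ± 0.47, adjusted p = 0.0378). All 3 adult β-globin probes were thus lower in motor neurons without overlap, a separation that 14.8% of all probes showed. How far each of the 3 reads the other copies was not tested. The calls of Hbb-bs and Hbb-bt were lost with no filter on dim probes (adjusted p = 0.135 and 0.160), with quantile normalization (0.140 for both), with no genotype term (0.129 and 0.199), and without the first or second wild-type-labelled GFP-on array (0.136 and 0.165, then 0.0881 and 0.0942) or the wild-type-labelled GFP-off array (0.211 and 0.269). That of Hbb-bt was also lost without the first knockout-labelled GFP-on array (0.0685) or the knockout-labelled GFP-off array (0.0634).

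Of the non-globin members, Alas2 encodes the red cell form of the first and rate-limiting enzyme of haem synthesis. It read -0.41 and -1.35, -0.31 and 0.02 on the GFP-on arrays and 2.40 and 2.73 on the others. Alas2 was 8.45-fold lower in motor neurons (-3.08 ± 0.48, adjusted p = 0.0345). Slc4a1, band 3 of the red cell membrane, read -0.73, -1.21, -0.55 and -0.59 on the GFP-on arrays, the tightest values of any member, and 1.87 and 1.76 on the others. It was 6.01-fold lower (-2.59 ± 0.45, adjusted p = 0.0388). Klf1, the erythroid factor that activates adult β-globin, was well above background on the knockout-labelled GFP-off array alone, at -2.68, and was not tested. It was not well above background on the knockout-labelled GFP-on arrays. Against their mean, with the first array raised to its lowest signal called well above background (-2.76), the level was at least 2.22-fold higher. The second array entered at its own reading of -4.89, and against the first alone -2.68 is barely above -2.76.

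**Figure D2:**
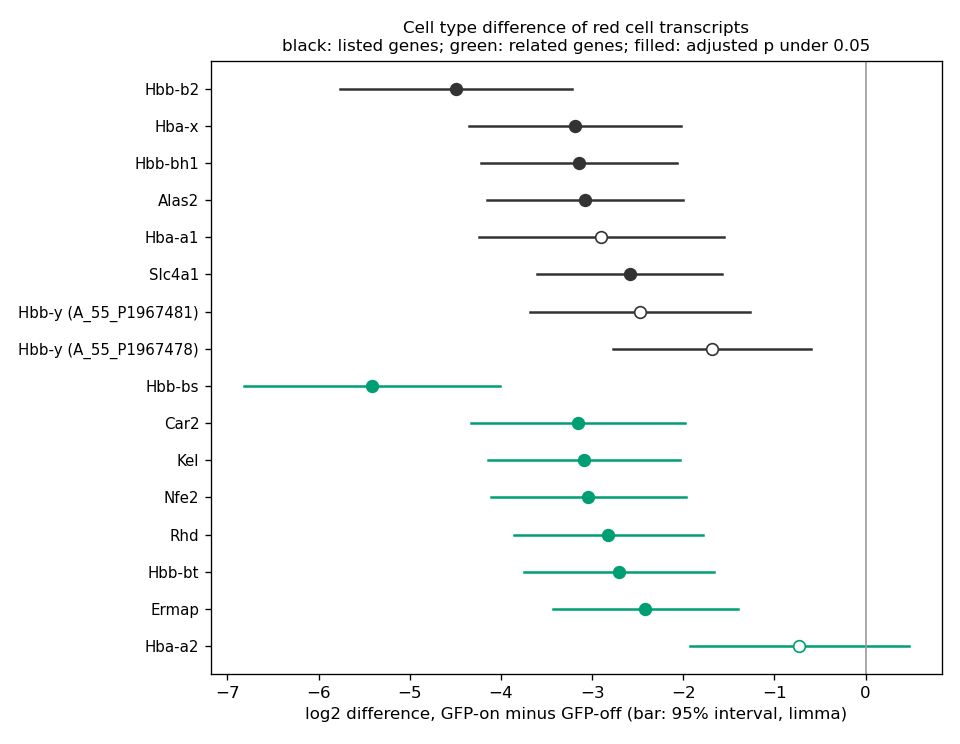
Fitted log2 difference, GFP-on minus GFP-off, for each tested member probe (black) and for related genes (green) with its 95% interval from limma; filled symbols have an adjusted p under 0.05. Hbb-bs, at -5.41, and Hbb-b2, at -4.50, lie farthest from 0, and the interval of Hba-a2, -1.93 to 0.47, includes it.

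Overall brightness moved with cell type, because 3 of the 4 GFP-on arrays were dim and both GFP-off arrays were bright. Between the bright knockout-labelled pair, the second GFP-on array and the GFP-off array, the differences were -3.66 for Hbb-bh1, -3.41 for Hba-x, -3.33 for Hbb-b2, -2.94 for Hba-a1, -3.75 for Alas2 and -3.08 for Slc4a1, and -2.11 and -2.60 for the Hbb-y probes A_55_P1967478 and A_55_P1967481. All but that of Hbb-b2 were as large as in the fit over all arrays. Slide row also moved with the groups, if the array positions read from the descriptions hold. By these, the knockout-labelled GFP-on arrays lay in row 1 and the other 4 in row 2. Within row 2, which held the 3 wild-type-labelled arrays and the knockout-labelled GFP-off array, the additive fit takes the cell type difference from the wild-type-labelled arrays alone, and the differences ran from -5.64 for Hbb-b2 to -1.79 for Hbb-y probe A_55_P1967478. Within the wild-type label, brightness and cell type cannot be told apart. The calls rested on few arrays. Without the first or the second wild-type-labelled GFP-on array, or without the wild-type-labelled GFP-off array, 0 of 8 member probes passed, and 0 of all probes tested. In those settings, in the same order, the difference was -3.06, -3.23 and -3.18 for Hbb-bh1, -3.04, -3.18 and -3.28 for Alas2, and -4.29, -4.38 and -3.35 for Hbb-b2. Without the knockout-labelled GFP-off array 3 member probes passed, with 849 of all probes against 284 on all arrays. Quantile normalization and omission of the filter on dim probes also gave 0, for members and for all probes, while no member probe changed direction in this comparison under the alternatives tried.

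Within a genotype label, 2 GFP-on arrays were set against a single GFP-off array. The spread came from the GFP-on pairs alone (2 residual degrees of freedom), and the single array was assumed to vary like them. The wild-type-labelled arrays gave 3 member probes lower in motor neurons, where 1.51% of all probes were lower and 1.04% higher. Hbb-b2 was lower (-5.64 ± 0.62, adjusted p = 0.0191), Hba-a1 was lower by 3.69 ± 0.78 on the log2 scale (12.9-fold, adjusted p = 0.0454) and Hba-x was 11.9-fold lower (-3.57 ± 0.72, adjusted p = 0.0424). Without the second wild-type-labelled GFP-on array the count was 0, as it was over all probes. Without either knockout-labelled GFP-on array, which leaves these differences as they are and changes the shared spread, 6 member probes and 1994 of all probes passed, against 849. The knockout-labelled arrays gave 0 of 8 member probes, with 0% of all probes called and 2513 probes at an unadjusted p under 0.05. Their member differences lay between -3.35 (Hbb-b2) and -1.59 (Hbb-y probe A_55_P1967478), with adjusted p from 0.234 to 0.646. A test of whether the cell type difference itself differed between the labels passed for 0% of all probes, with 2807 at an unadjusted p under 0.05. The largest such term among the members was 2.29 ± 0.88 for Hbb-b2 (adjusted p = 0.572), and the others lay between -0.51 and 1.59. These comparisons share their arrays with the pooled one.

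Other red cell genes followed in part. Their counts stand against 0.204% of all probes lower and 0.649% higher in the cell type fit. Among globin companions (further globins and abundant red cell enzymes), 3 of 9 tested probes were lower in motor neurons and 0 higher, with a median of -1.84. They were Hbb-bs, Hbb-bt and Car2, the erythrocyte carbonic anhydrase, which read -1.05 and -0.82 on the knockout-labelled GFP-on arrays, was not well above background on those of the wild-type label, and reached 1.54 and 1.12 on the others (-3.16 ± 0.53, adjusted p = 0.0376). The θ-globins Hbq1a and Hbq1b were well above background on both GFP-off arrays and on no GFP-on array. Hbq1a was at least 1.23-fold higher in GFP-off cells, no such bound could be set for Hbq1b, and neither passed (adjusted p = 0.105 and 0.230). Among genes of the red cell membrane and skeleton, 3 of 17 probes were lower and 0 higher (median -0.63). They were Kel and Rhd, which encode blood group antigens, and Ermap, an erythroid membrane protein gene, at -3.09 ± 0.47, -2.82 ± 0.47 and -2.42 ± 0.45 (adjusted p = 0.0345, 0.0368 and 0.0476). Each of these was well above background on 1 of 4 GFP-on arrays, the bright one, so the sizes are approximate. They met the filter of 2 arrays only with the GFP-off arrays, where they were high, so these calls are no separate support. Aqp1 and Gypc gave -2.25 and -1.63 without passing (adjusted p = 0.0576 and 0.205). Dmtn, from the same list, went the other way, at 1.69 ± 0.50 (adjusted p = 0.128), with every GFP-on array above both GFP-off arrays. The probe of Ermap named here is A_51_P391716, and the gene had 2 further probes tested. A_55_P2153382 was above background on both GFP-off arrays and on no GFP-on array, at least 1.25-fold higher in GFP-off cells (adjusted p = 0.105), and A_55_P2153381 gave 1.18 ± 0.63 (adjusted p = 0.336).

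Among erythroid regulators 1 of 14 probes was lower and 0 higher (median -0.83). It was Nfe2, a subunit of the globin-locus activator NF-E2, at -3.04 ± 0.48 (adjusted p = 0.0345), above background on 1 of 4 GFP-on arrays. Nfe2 also met the filter of 2 arrays only with the GFP-off arrays, so its call is no separate support. Gata1, the master regulator of the lineage, was likewise above background on 1 GFP-on array and on both others. Its difference of -2.38 did not pass (adjusted p = 0.0681). Trim10 and Myb gave -2.25 and -2.03 without passing (adjusted p = 0.0803 and 0.0940). Lmo2 went the other way, at 1.185 ± 0.44 (adjusted p = 0.201), with every GFP-on array above both GFP-off arrays. General genes of haem synthesis gave 0 of 9 probes in either direction, with a median of -0.56, and Alas1, the housekeeping counterpart of Alas2, gave 1.26 at its largest probe without passing. Genes of iron supply gave 0 of 12 with a median of -0.21. Of the globins made outside red cells, Mb and Cygb gave 0.43 and 0.39 without passing, and the neuronal globin Ngb was not well above background on any array. For comparison, the median difference of all probes was -0.09, with 0.204% of them lower and 0.649% higher.

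Markers of other cells that the GFP-off gate could hold were read on the same arrays. The summed level of the 8 members with a probe (1 being the array's 75th percentile) was 247 to 578 on the GFP-on arrays and 1387 and 1515 on the GFP-off arrays. The 8 mesenchyme markers, all above background everywhere, moved the same way as the members, with sums of 323 to 515 against 1077 and 777. None of the 8 mesenchyme probes passed the test (median -1.21), where 0.204% of all probes were lower and 0.649% higher. Endothelial markers gave 0 of 11 probes in either direction, with sums of 13.8 to 127 against 26.3 and 45.3. Microglia and macrophage markers gave 0 of 13, with sums of 8.70 to 27.7 against 26.8 and 15.5. Platelet and megakaryocyte markers gave 0 of 6, with sums of 1.73 to 8.80 against 7.64 and 2.77, and the platelet integrin gene Itga2b was not well above background on any array. Spinal progenitor markers gave 0 of 7, with sums of 39.6 to 133 against 101 and 88.8. Their part in the red cell difference was not tested. In these bulk samples, fewer red cells, less RNA per red cell and a source other than red cells cannot be told apart.

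**Figure D3:**
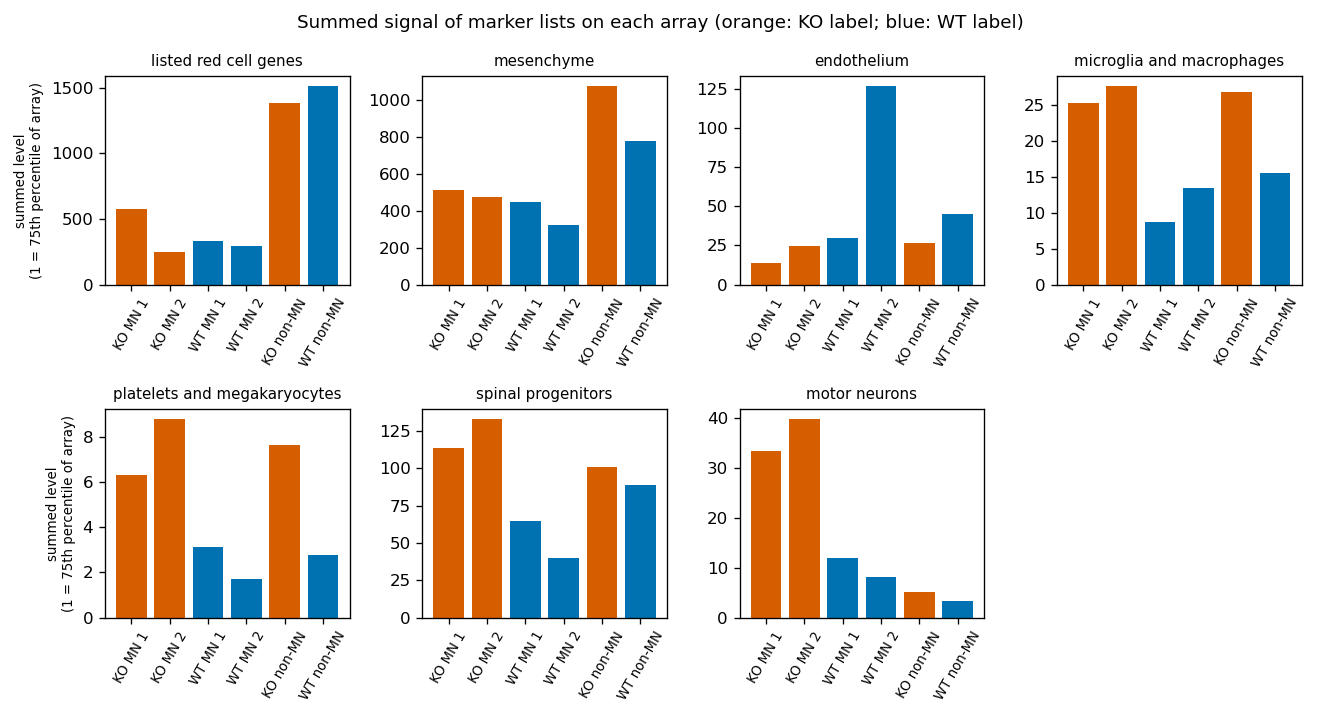
Bars give the summed linear level of each marker list on each array, where 1 is the 75th percentile of that array (orange: knockout label, KO; blue: wild-type label, WT; MN: motor neurons). The listed red cell genes sum to 1387 and 1515 on the GFP-off arrays and to at most 578 on a GFP-on array. Hbb-y and Hba-a1 make up most of these sums, and Hba-a2 is not in them. The mesenchyme list also stands highest on the GFP-off arrays, and the endothelial list is highest, at 127, on the second wild-type-labelled GFP-on array.

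Between genotype labels in motor neurons, the globins differed in sign. Hba-x and Hbb-b2 were higher on the knockout-labelled arrays, by 1.95 ± 0.59 (adjusted p = 0.0417) and 1.57 ± 0.51 (adjusted p = 0.0499) on the log2 scale, which is 3.86-fold and 2.97-fold. These were 2 of 8 member probes, and 10.6% of all probes were called higher and 14.2% lower. Hba-a1, Hbb-bh1 and Hbb-y probe A_55_P1967481 also had both knockout-labelled arrays above both wild-type-labelled ones, as did 29.8% of all probes. Their differences of 1.62 ± 0.64 (adjusted p = 0.0881), 1.29 ± 0.56 (adjusted p = 0.115) and 1.12 ± 0.59 (adjusted p = 0.184) did not pass. Alas2 at -0.73 ± 0.56 and Slc4a1 at -0.40 ± 0.52 had the opposite sign (adjusted p = 0.345 and 0.586). The other Hbb-y probe gave -0.15 ± 0.56 (adjusted p = 0.868), so the 2 probes of that gene disagreed in sign. Hba-a2 gave -1.53 ± 0.60 (adjusted p = 0.0855), opposite to Hba-a1, and Hbb-bt and Hbb-bs gave -0.67 and 0.65 without passing.

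Scaling mattered here. The median of all probes was -0.20 in this comparison. Scaling on the array median in place of the 75th percentile moved it to 0.44, gave 7282 probes higher and 2569 lower, and called 5 member probes. It also turned the sign of Slc4a1 and of Hbb-y probe A_55_P1967478. The 2 calls were lost on leaving out any one of the 4 GFP-on arrays (0 of 8 each time). By the array positions read from the descriptions, the genotype labels in motor neurons lay in different slide rows. If those positions hold, row and label cannot be told apart. Globin companions had 2 of 9 probes higher and 1 lower, haem synthesis 1 of 9 higher and 0 lower, and iron supply 2 of 12 in each direction. Membrane and skeleton genes had 0 of 17 higher and 3 lower, erythroid regulators 1 of 14 higher and 0 lower, and other globins 0 of 2. Over all probes 10.6% were higher and 14.2% lower, so these calls do not set red cell genes apart. Named after their values were seen, the genes called higher were Bpgm, Car2, Alad, Glrx5 and Myb. Those called lower were Car1, Slc11a2, Epb41 and Ermap (probe A_55_P2153381). Tfrc, the transferrin receptor, had 1 probe called in each direction. Marker lists of other cells were read against the same shares, 10.6% of all probes higher and 14.2% lower. The microglia and macrophage markers had 7 of 13 probes higher on the knockout-labelled GFP-on arrays and 0 lower, with sums of 25.3 and 27.7 there against 8.70 and 13.4 under the wild-type label. The motor neuron markers had 4 of 9 higher and 0 lower, with sums of 33.5 and 39.9 against 12.0 and 8.14. Endothelial markers had 2 of 11 higher and 0 lower, spinal progenitor markers 2 of 7 higher and 1 lower, platelet markers 1 of 6 in each direction, and mesenchyme markers 0 of 8. Their part in the globin values was not tested.

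In the GFP-off fraction there was 1 array per label, and the labels were compared as values without a test. The embryonic globins Hbb-bh1 and Hba-x were 2.56-fold and 2.25-fold higher on the knockout-labelled array. These were the only 2 of 8 member probes over 2-fold higher, a size reached by 2.69% of all probes, and none was over 2-fold lower, where 5.99% of all probes were. Hbb-y differed by 0.02 and -0.34 on the log2 scale, Hba-a1 by 0.03, Slc4a1 by 0.11 and Alas2 by -0.33. The adult β-globins read lower on the knockout-labelled array, with differences of -0.72 for Hbb-b2, -0.61 for Hbb-bt and -1.16 for Hbb-bs (2.24-fold). Klf1 read -2.68 there and was not well above background on the wild-type-labelled array.

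**Figure D4:**
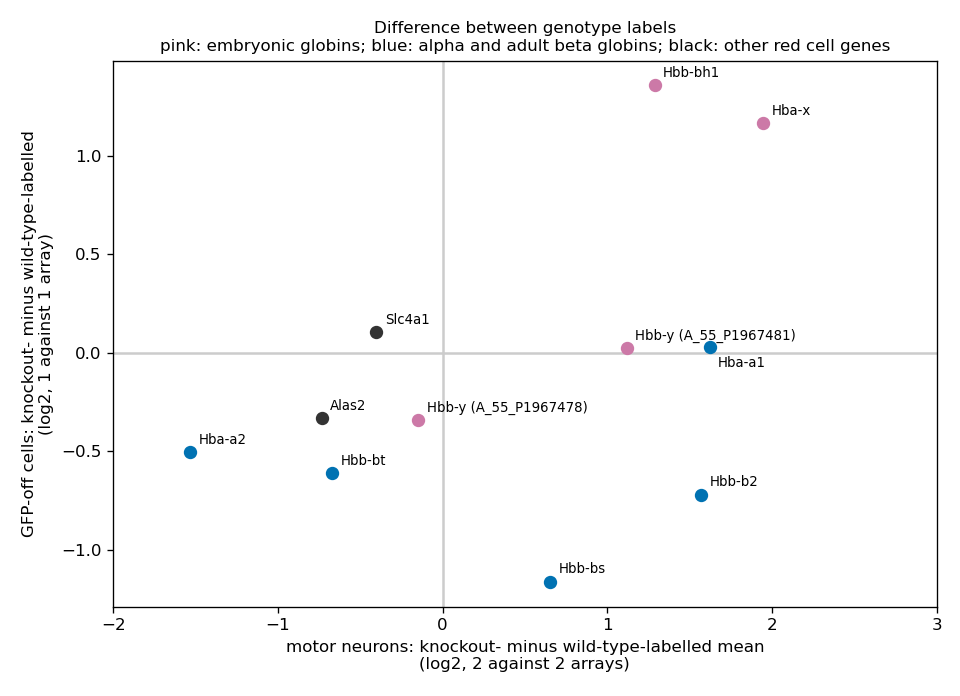
Log2 difference between genotype labels (knockout minus wild type) in motor neurons (horizontal, means of 2 arrays each) against that in GFP-off cells (vertical, 1 array each). Hbb-bh1 and Hba-x are the 2 genes at the upper right, above 1 on both axes, while Hbb-b2 lies at 1.57 and -0.72.

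Over the 6 arrays the members followed one another, with a Pearson r of 0.752 to 0.989 for the 21 pairs among 7 genes (1 probe per gene). The mean centred member profile was -0.19 and -1.09 on the knockout-labelled GFP-on arrays, -1.46 and -1.28 on those of the wild-type label, and 2.10 and 1.92 on the GFP-off arrays. The first knockout-labelled GFP-on array was thus the highest of the 4, by 0.90 over the second. Among 9561 probes that spanned at least 2 on the log2 scale, the genes closest to this profile were Itgbl1, Grpr, Igfbp6, Kel, Lhx8, Igf1, Ltf, Adamts2, Kazald1 and Trim16, with r of 0.975 to 0.994. Of the companion lists, Kel ranked 4th, Ermap 13th, Blvrb 26th, Nfe2 27th and Hbb-bs 39th. These 6 points share the split of 4 low and 2 high arrays, so the correlations describe that split and carry no test.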

How the data were processed

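Per the file headers, Agilent Feature Extraction 10.5.1.1 read the spots (9.1 in the submitters' processing notes). In the deposited files each spot's processed signal is an intensity, background-subtracted and not scaled between arrays. The authors' deposited value table is in log2 and equals the values used here within 0.01.

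Here, log2 processed signals of unflagged spots were averaged per probe, and the array's 75th percentile was subtracted. Probes were named through RefSeq accessions (assembly GRCm38.p6), which named 26300 of 55681 probes. Each probe well above background on at least 2 arrays (33264) was tested in limma 3.58.1 under R 4.3.3, by lmFit and eBayes with Benjamini-Hochberg adjustment and a threshold of 0.05. Cell type was fitted with genotype label as an additive term (3 residual degrees of freedom), and the other contrasts came from 4 group means (2 residual degrees of freedom), where the single non-motor-neuron arrays are assumed to vary alike. An exact two-sided permutation test of a single probe cannot go below 0.133 for 4 against 2 arrays or 0.333 for 2 against 2. Where every array of a group was not well above background, a fold is a lower bound against the mean of that group. For it, each reading below its array's lowest signal called well above background was raised to that signal. Promoter windows and their motif shares came from RefSeq.

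Named genes were all member probes, companion genes past the threshold between cell types or the 4 largest per list, and the 10 most similar profiles. The members and lists were chosen with earlier results of these data known. The steps were tested on simulated data.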

Additional observations from a re-analysis of the deposited data

How the results depend on the processing

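Of the 8 member probes, 5 were lower in motor neurons. The count was 0 with no filter on dim probes, with quantile normalization, with no genotype term and, chosen after seeing the data, without both wild-type-labelled motor neuron arrays; it ranged from 0 to 7 on leaving out each array. It was 6 with the replicate number as a block and 6 with the shared tag as a block, which would pair the first GFP-on array with the GFP-off array of its label. Within knockout-labelled arrays (0 called), it was 5 among probes above background on all 6 arrays and 3 with median scaling or normexp. Within wild-type-labelled arrays (3 called), it was 0 with no filter or quantile normalization, 7 with the filter on all 6 arrays, median scaling or normexp, 5 with 1 probe per gene, and 0 to 6 leaving out each array. Between genotype labels in motor neurons (2 called), it was 0 with no filter, quantile normalization or an additive model, 5 with median scaling, 0 to 2 leaving out each array, and 1 with the replicate block; same-numbered arrays did not deviate together (r = -0.096), so the number was not taken as a pairing. In that comparison Hbb-y probe A_55_P1967478 changed sign, to 0.49 with median scaling, 0.37 with quantile normalization, 0.22 with normexp, and ranged from -0.67 to 0.38 on leaving out each array, and Slc4a1 to 0.23 with median scaling. In the interaction Hbb-bh1 gave 0.31 with median scaling, and leaving out each array gave -0.55 to 0.41 for Hbb-bh1, -0.33 to 0.72 for Hbb-y probe A_55_P1967478 and -0.87 to 0.071 for Alas2. The causes were not tested. Over all probes, 284 were called between cell types, 0 with no filter or quantile normalization, 75 with normexp (34 lower, 41 higher), 527 with median scaling, 836 with the filter on all 6 arrays, 1051 with the replicate block and 2199 with the shared tag as a block; leaving out each array gave 0 to 1802. Between genotype labels in motor neurons 8257 were called, 0 with no filter or the additive model, 1332 with normexp and 1970 with quantile normalization. Within knockout-labelled arrays 0 of all probes were called, 174 of 19075 with the filter on all 6 arrays, 349 with median scaling and 32 with normexp. Within wild-type-labelled arrays 849 of all probes were called, and 2089, 3849 and 639 in the same settings, so calls over all probes moved with these settings too. The 3 dim motor neuron arrays limit probes near background.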
